A study of Mus musculus with 40 samples.

Results

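The comparison described here set the cerebella of SCA6 mice against those of wild-type (WT) mice at 6 months of age. It used the 10 libraries that the labels give this tissue and age, 5 per genotype, out of 40 libraries in the series. All 13107 genes with 1 or more counts per 1000000 counts of the library (CPM) in every library of either genotype were tested, out of 21967 genes in the count table. The SCA6 mice were heterozygous (HET in the labels). In these knock-in mice 1 copy of Cacna1a has a lengthened CAG tract, read as glutamines, at the gene's own place in the genome, so that no transgene promoter is involved. The study obtained the line from a repository by recovery of frozen embryos. RNA was prepared from the whole cerebellum, each sample on its own, and mRNA was sequenced in 150 bp paired reads. The study asked which transcripts differ before motor impairment begins, and 6 months is an age before that onset.

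Cacna1a encodes the pore-forming subunit of the voltage-gated calcium channel Cav2.1, which cerebellar Purkinje neurons use more than most other neurons. Calcium entry through this channel shapes the regular pacemaking of Purkinje neurons and drives transmitter release at their synapses. In the endoplasmic reticulum (ER), chaperones fold new proteins, and 3 sensors, IRE1, PERK and ATF6, start the unfolded protein response (UPR) when unfolded proteins accumulate. That response raises the transcription of ER chaperones, slows translation and increases the removal of misfolded proteins.

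The libraries held 52226098 to 84506602 counts in WT and 48984690 to 64042765 in SCA6. Markers of the labelled tissue were present in all 10: Pcp2 of Purkinje cells lay between 271 and 344 CPM, Gabra6 of granule cells between 928 and 1241 CPM, and Mbp of oligodendrocytes between 2066 and 2671 CPM. Neurod1 of granule cells was listed at 0 in all 40 libraries of the series, as were 2875 other genes of the table. WT library 1 stood apart. Its summed correlation with the other 9 libraries, expressed as a z value, was -2.51, against -0.70 for the next lowest, and its Ttr level was 12.7 CPM where the other 9 had 2233 to 3371 CPM. Ttr, which encodes transthyretin, is the leading transcript of the choroid plexus. RNA of Y-linked genes was present in 3 WT libraries (1, 3 and 4) and in 1 SCA6 library (1). The first number in each library's identifier in the labels, called the ID number below, was 7, 7, 8, 10 and 10 in WT libraries 1 to 5 and 7, 7, 7, 8 and 8 in SCA6 libraries 1 to 5. The labels do not say what it stands for. ID number 10 held WT libraries only, so at this number it cannot be told apart from genotype. The tissue was bulk RNA, in which fewer cells of a type and less RNA per cell cannot be told apart.

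Few transcripts were called between SCA6 and WT cerebella at this age, and the 3 called by edgeR lay on chromosome 8, which also carries Cacna1a. The study, which removed outlying libraries first, listed more genes at this age. Calls needed an adjusted p of at most 0.05 and a log2 fold change of at least 0.3 in size. The edgeR quasi-likelihood test called 3 of 13107 genes (0.0229%), 1 higher (Comp) and 2 lower (Mri1 and Abcc12) in SCA6. DESeq2, the tool the study used, called 27 genes (0.206%) at the same thresholds, 6 higher and 21 lower. At an unadjusted p under 0.05 (edgeR), 517 genes (3.94%) were higher and 780 (5.95%) lower, 1297 in all where about 655 would be expected by chance. Without the 2 WT libraries of ID number 10, and so with fewer libraries, 672 of 13129 genes had an unadjusted p under 0.05 (edgeR). What lies behind the excess was not tested. A low number of calls does not by itself show that few transcripts differ. All 5 SCA6 libraries lay above all 5 WT libraries for 115 genes (0.877%) and below them for 116 (0.885%). The median log2 fold change over all genes tested was 0.00, and the change reached 0.3 in size, up or down, for 395 genes (3.01%).

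Comp, which encodes a secreted glycoprotein of the extracellular matrix of cartilage, rose in SCA6. Its level in WT libraries 1 to 5 was 5.37, 3.96, 4.47, 5.35 and 4.85 CPM, and in SCA6 libraries 1 to 5 it was 12.6, 8.17, 10.3, 12.0 and 13.8 CPM. The groups did not overlap, with means of 4.80 ± 0.599 and 11.4 ± 2.20 CPM (SD, n = 5 each). The log2 fold change was 1.24 ± 0.138 (SE) with an adjusted p of 0.00364 (edgeR). Comp lies at chr8:70373558-70382066 on the plus strand of GRCm38, 14.01 Mb (megabases) before Cacna1a.

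Mri1, an enzyme of methionine salvage, and Abcc12, a member of the ABC transporter family, fell in SCA6. Mri1 stood at 26.1, 23.8, 24.5, 28.6 and 27.1 CPM in WT and at 13.5, 15.1, 14.7, 15.9 and 18.01 CPM in SCA6. Abcc12 stood at 20.6, 20.4, 17.7, 20.6 and 20.1 CPM in WT and at 12.4, 12.6, 13.5, 13.3 and 14.5 CPM in SCA6. For both genes every SCA6 library lay below every WT library. Mri1 fell by 0.75 ± 0.0809 and Abcc12 by 0.59 ± 0.0657 on the log2 scale (SE, adjusted p = 0.00364 for both, edgeR). Mri1 lies at chr8:84249906-84257326 on the minus strand, 0.131 Mb before Cacna1a, and Abcc12 at chr8:86482260-86580686 on the minus strand, 1.84 Mb after it. Without WT libraries 4 and 5, those of ID number 10, none of the 3 genes was called. Their adjusted p was then 0.130 (edgeR), with log2 fold changes of 1.30 for Comp, -0.69 for Mri1 and -0.56 for Abcc12, and 672 genes had an unadjusted p under 0.05. With the ID number as a factor, which compares the genotypes within numbers 7 and 8, all 3 were called together with Tmem59l, another gene of chromosome 8 (4 genes, 0.0305%).

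**Figure D1:**
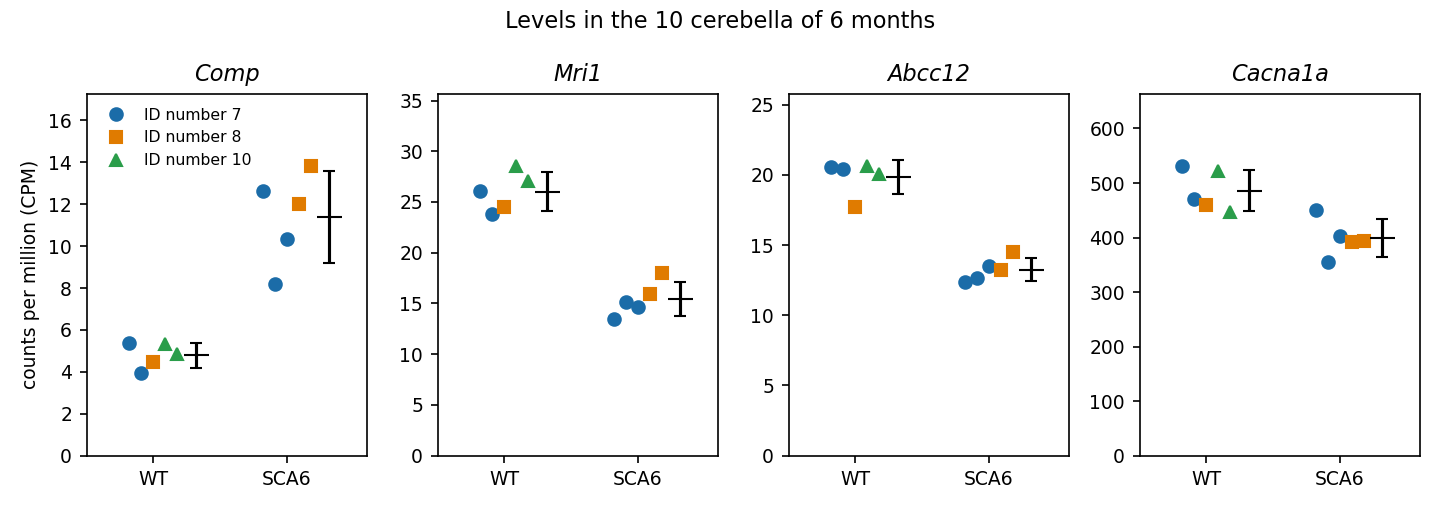
Levels of Comp, Mri1, Abcc12 and Cacna1a in CPM (vertical axes, from 0) in the 5 WT and 5 SCA6 libraries of 6 months, 1 point per library with its shape giving the ID number, beside the mean and SD. Comp lies at 8.17 to 13.8 CPM in SCA6 against 3.96 to 5.37 CPM in WT, Mri1 and Abcc12 lie lower in SCA6 without overlap, and the Cacna1a ranges overlap between 446 and 451 CPM.

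The same 3 genes were followed in the cerebella of the other ages, which are separate libraries. The log2 fold change of Comp was 1.19 ± 0.294 at 3 months, 1.23 ± 0.109 at 12 months and 1.13 ± 0.1005 for the oldest mice (SE, n = 5 per genotype), and Comp was called at 12 and 19 months (adjusted p = 0.000609 and 0.000744, edgeR). That of Mri1 was -0.21 ± 0.120, -0.56 ± 0.0629 and -0.67 ± 0.0635, and it too was called at 12 and 19 months (adjusted p = 0.00281 and 0.000772). Abcc12 had -0.27 ± 0.107, -0.33 ± 0.0666 and -0.49 ± 0.0870 and was called at none of these ages (adjusted p = 0.321, 0.536 and 0.247). At 3 months the libraries labelled SCA6 2 and 3 went against their label in Comp and Mri1. Their Comp levels were 3.63 and 3.69 CPM, within the range of 2.81 to 3.84 CPM in WT, while the other 3 SCA6 libraries had 7.80 to 11.4 CPM. Their Mri1 levels were 27.5 and 24.4 CPM, where WT ranged from 22.7 to 25.9 CPM and the remaining 3 SCA6 libraries from 17.1 to 17.99. Without these libraries the log2 fold change at 3 months was 1.603 ± 0.136 for Comp and -0.46 ± 0.0526 for Mri1 (adjusted p = 0.00212 and 0.0146, edgeR). Because the libraries were picked by these same genes, the larger changes and smaller p follow from the choice and are not independent evidence. With all libraries, edgeR called 1 of 13104 genes (0.00763%) in mice of 3 months, 4 of 13202 (0.0303%) in those of 12 and 3 of 13272 (0.0226%) in those of 19. No gene of 13381 was called for a difference of the effect at 6 months from the mean effect of the other 3 ages (edgeR, smallest adjusted p = 0.123, and 1606 genes at an unadjusted p under 0.05).

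A further 4 genes of chromosome 8 were called by DESeq2 and not by edgeR, and none overlapped between the groups. Over all genes tested 231 of 13107 (1.76%) did not overlap, and these 4 were selected for differing in the same libraries. Il15, which encodes the cytokine interleukin 15, was at 3.05, 3.75, 3.28, 3.44 and 4.14 CPM in WT and at 1.54, 2.04, 2.20, 2.44 and 2.09 CPM in SCA6. Hook2, which links cargo to microtubule motors, was at 12.1, 10.02, 11.3, 13.7 and 14.3 CPM in WT and at 8.15, 7.96, 8.402, 8.45 and 9.75 CPM in SCA6. Both were lower in every SCA6 library, with log2 fold changes of -0.77 ± 0.132 and -0.53 ± 0.1003 (SE). The zinc finger genes Zfp868 and Zfp963, which lie 14.8 and 14.6 Mb before Cacna1a, were higher. Zfp868 was at 26.9, 30.5, 26.5, 31.7 and 29.4 CPM in WT and at 35.7, 39.1, 37.1, 36.5 and 35.8 CPM in SCA6, and Zfp963 at 3.79, 3.32, 4.11, 3.64 and 3.61 CPM in WT and 4.35, 5.29, 4.88, 5.46 and 5.85 CPM in SCA6. Their log2 fold changes were 0.35 ± 0.0600 and 0.48 ± 0.0994. DESeq2 gave adjusted p of 0.000401 for Il15, 0.00175 for Hook2, 0.000115 for Zfp868 and 0.0117 for Zfp963, where edgeR gave 0.188, 0.371, 0.188 and 0.375.

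Cacna1a itself was not called. It stood at 531, 471, 459.6, 522 and 446 CPM in WT and at 451, 355, 403, 392 and 394 CPM in SCA6. SCA6 library 1 overlapped the lowest WT library and the other 4 lay below all WT libraries. The means were 486 ± 38.1 and 399 ± 34.3 CPM (SD, n = 5), with a log2 fold change of -0.28 ± 0.0702 (SE, adjusted p = 0.387 by edgeR and 0.0421 by DESeq2), short of the 0.3 minimum. Its log2 fold changes at 3, 12 and 19 months were -0.08 ± 0.0721, -0.23 ± 0.0685 and -0.22 ± 0.0605 (adjusted p = 0.639, 0.594 and 0.774, edgeR). The counts do not separate the alleles and do not report the repeat, so they do not check the label of the mutation.

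Genes whose groups did not overlap were not spread evenly over the genome. On chromosome 8 they were 28 of 641 genes tested (4.37%), 14 in each direction, and on the other chromosomes 194 of 11829 (1.64%), against 231 of 13107 (1.76%) over all. By distance from Cacna1a they were 6 of 81 genes (7.41%) within 5 Mb, 1 of 38 (2.63%) from 5 to 10 Mb, 11 of 143 (7.69%) from 10 to 20 Mb, 4 of 126 (3.17%) from 20 to 30 Mb and 6 of 253 (2.37%) beyond 30 Mb. All 7 chromosome 8 genes called by DESeq2 lay within 20 Mb of Cacna1a. Trmt1, a tRNA methyltransferase that starts 0.0461 Mb after the end of Cacna1a, was among the uncalled genes without overlap, at 60.8, 55.9, 64.5, 63.3 and 56.7 CPM in WT and 51.7, 43.7, 49.3, 53.2 and 53.7 CPM in SCA6 (log2 fold change -0.26 ± 0.0654, adjusted p = 0.387, edgeR). Distances are between the nearest ends of the genes, and no test of the distribution was made.

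**Figure D2:**
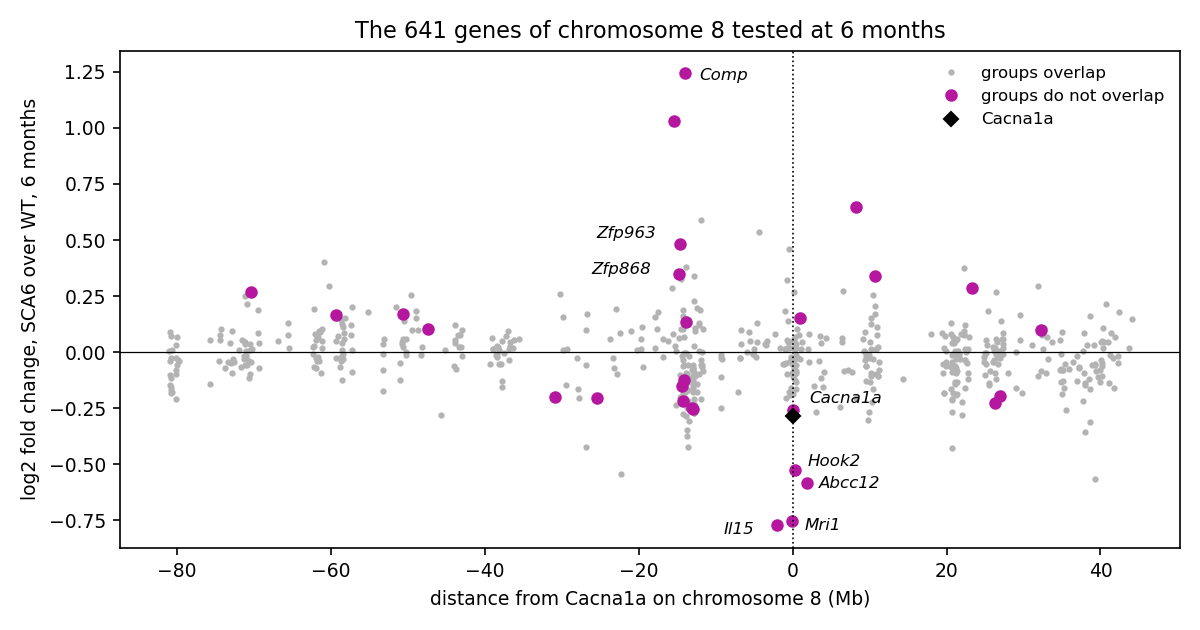
Log2 fold change of SCA6 over WT at 6 months (vertical axis) against the distance from Cacna1a in Mb (horizontal axis) for the 641 genes of chromosome 8 tested, with genes whose groups did not overlap as large points. Such points gather within 20 Mb of Cacna1a in both directions, from -0.77 for Il15 to 1.24 for Comp.

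The other 20 genes that DESeq2 called lay elsewhere, 19 on other chromosomes and 1 without a position in the annotation used here, and 17 of them were lower in SCA6. None was called by edgeR, in which their adjusted p lay between 0.375 and 0.387. Mybpc3, a myosin-binding protein best known from heart muscle, was at 36.7, 31.8, 29.5, 52.8 and 43.3 CPM in WT and at 24.5, 22.3, 24.3, 24.9 and 27.1 CPM in SCA6. Cirbp, an RNA-binding protein induced by mild cold, was at 94.8, 66.0, 89.3, 107 and 128 CPM in WT and at 54.0, 56.0, 65.5, 64.4 and 75.6 CPM in SCA6. Kcnt1, a potassium channel gated by sodium, was at 472, 399, 422, 501 and 435 CPM in WT and at 379, 304, 344, 360.3 and 395 CPM in SCA6. Mybpc3 and Kcnt1 did not overlap between the groups, and Cirbp did. WT library 4 or 5 was the highest WT library for 12 of the 17 lower genes, and for all 4 lower genes of chromosome 8. Their log2 fold changes were -0.66 ± 0.135 for Mybpc3, -0.62 ± 0.147 for Cirbp and -0.32 ± 0.0789 for Kcnt1, and with the ID number as a factor they were -0.41, -0.42 and -0.28.

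Among the remaining lower genes were the adhesion receptor Adgrb1 (-0.37 ± 0.0801), the secreted Wnt inhibitor Sost (-0.57 ± 0.125), the carbonic anhydrase Car9 (-0.40 ± 0.0907) and the calcium-binding protein Cabp2 (-0.67 ± 0.168). The 3 higher genes were Gpr26, Zfp773 and Ceacam1. Gpr26, an orphan receptor of neurons, was at 8.41, 10.5, 6.76, 8.82 and 8.52 CPM in WT and at 11.7, 14.3, 13.03, 11.7 and 11.4 CPM in SCA6, without overlap (log2 fold change 0.53 ± 0.108). In all, 13 of these 20 genes did not overlap between the groups, beside 231 of 13107 (1.76%) over all genes tested. They were selected for differing in these same libraries, so a high share follows from the selection. All 20 kept their sign with the ID number as a factor, in a fit of the libraries that selected them, so this is not independent support.

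The chromosome 8 genes and the others differed in their values at the other ages. Of the 7 called genes of chromosome 8, 6 had the sign they had at 6 months at 3 months, 7 at 12 months and 7 at 19 months. Of the other 20, 5 (25%) did so at 3 months, 6 (30%) at 12 months and 18 (90%) at 19 months. SCA6 libraries 2 and 3 of 3 months were doubted for their levels of Comp and Mri1, which are among the 7. Without them 7 of 7 and 6 of 20 shared the sign at that age. Over all 12973 genes tested at every age these shares were 35.1%, 48.7% and 57.9%. Mybpc3 had log2 fold changes of -0.03 ± 0.0733, 0.08 ± 0.126 and -0.29 ± 0.0771 at 3, 12 and 19 months, and Cirbp had 0.05 ± 0.0802, 0.25 ± 0.237 and -0.30 ± 0.171.

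**Figure D3:**
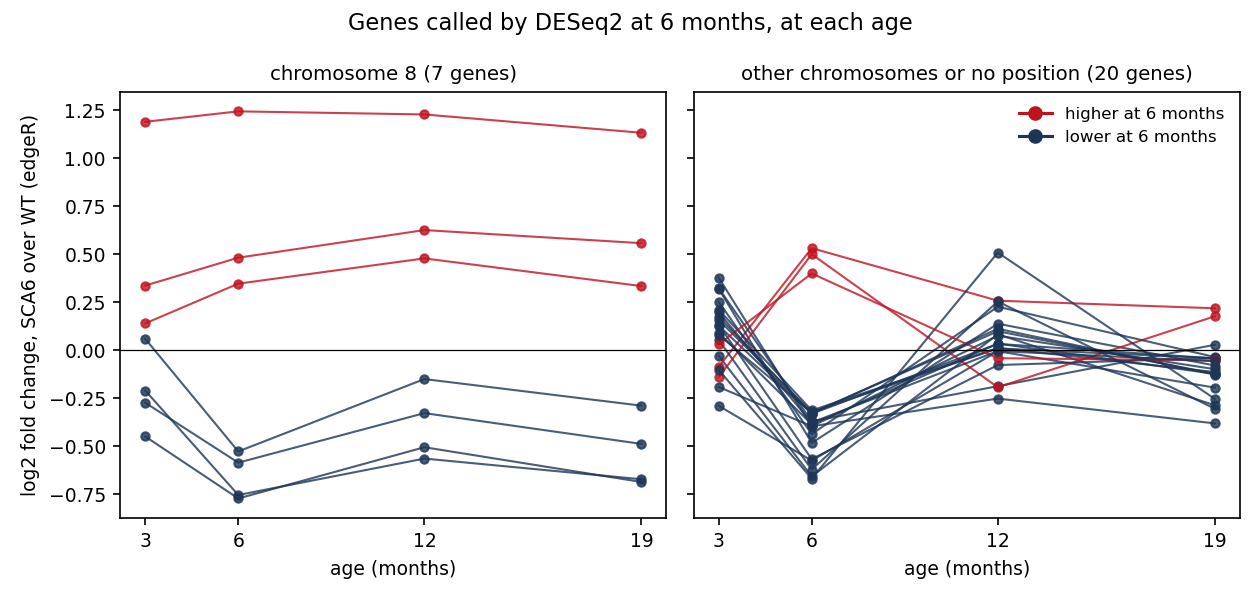
Log2 fold change of SCA6 over WT (vertical axis, edgeR) at 3, 6, 12 and 19 months (horizontal axis) for the 27 genes that DESeq2 called at 6 months, 1 line per gene, with the 7 genes of chromosome 8 on the left and the other 20 on the right. The lines of chromosome 8 keep their sign except that of Hook2, which is 0.06 at 3 months (-0.13 without SCA6 libraries 2 and 3), while most lines on the right lie near 0 or on the other side of it at 3 and 12 months.

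No ER chaperone was called. The study named 10 ER chaperones and foldases from libraries of this series, so their direction is not independent evidence. Their log2 fold changes ran from 0.16 to 0.41 around a median of 0.30, so that all 10 were positive, beside 50.2% of all genes above 0 and a median of 0.00. None was called by either tool, and the unadjusted p was under 0.05 for 2 of 10 (Dnajc3 and Dnajb9). ATF6 and XBP1, transcription factors of the UPR, act through the ER stress response element, read here as CCAAT, 9 bases of any kind and CCACG. The 250 bases before the start were searched on both strands in the RefSeq promoters of GRCm38.p6, which held 9 of the 10 genes. The element was found in 5 of these 9 (55.6%), in 17 of 9869 tested genes with a promoter (0.172%) and in 35 of 27025 promoters in all (0.13%). The study describes these chaperones as known targets of XBP1 and ATF6, so a high share was likely beforehand. It says nothing of SCA6 against WT. The matches are shown because they mark which of the chaperones carry this element, with its letters in capitals and 5 bases on each side, read on the strand of the gene. In Calr and in the second match of Hsp90b1 the element lies on the other strand, so that its complement is in capitals.
Hspa5, chr2:34772020-34772048, plus strand: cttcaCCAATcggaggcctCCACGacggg
Hsp90b1, chr10:86705633-86705661, minus strand: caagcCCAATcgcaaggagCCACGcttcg
Hsp90b1, chr10:86705528-86705556, minus strand: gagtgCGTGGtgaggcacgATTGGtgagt
Dnajc3, chr14:118937822-118937850, plus strand: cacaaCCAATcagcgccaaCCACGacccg
Pdia6, chr12:17266486-17266514, plus strand: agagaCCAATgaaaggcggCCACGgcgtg
Calr, chr8:84847070-84847098, minus strand: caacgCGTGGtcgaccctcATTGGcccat

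Hspa5, which encodes BiP, the ER member of the HSP70 family, was at 444, 466, 662, 215 and 207 CPM in WT and at 791, 489, 449, 483 and 445 CPM in SCA6. WT libraries 4 and 5 lay lowest, WT library 3 lay above 4 of the 5 SCA6 libraries, and SCA6 library 1 lay highest. The log2 fold change was 0.41 ± 0.291 (SE, adjusted p = 0.655, edgeR). Hsp90b1, the ER member of the HSP90 family, was at 694, 699.8, 896, 424 and 406 CPM in WT and at 1219, 737, 663, 655 and 581 CPM in SCA6, a log2 fold change of 0.30 ± 0.237 (adjusted p = 0.6995). Calr, a chaperone that also buffers ER calcium and lies 0.202 Mb from Cacna1a, was at 439.6, 397, 623, 242 and 229 CPM in WT and at 606, 426, 386, 465 and 439.9 CPM in SCA6 (0.27 ± 0.237, adjusted p = 0.741). The order of the libraries was much the same in each of these genes.

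The same pattern held across the 10 genes. WT libraries 4 and 5 were the lowest of the 10 libraries for 9 genes, and SCA6 library 1 was the highest for 9. All SCA6 libraries lay above WT libraries 4 and 5 for 10 genes, and SCA6 libraries 2 to 5 lay above WT libraries 1 to 3 for none. The ID number moved with these levels. Among libraries of ID number 7 the median log2 ratio of SCA6 over WT for the 10 genes was 0.26, and all 10 were above 0. Without SCA6 library 1 this median was 0.02, with 6 of 10 above 0, and over all ID numbers the median log2 fold change without it was 0.15. For ID number 8, which holds 1 WT library, it was -0.49, and none was above 0. With the ID number as a factor the median log2 fold change was 0.01, with 7 of 10 above 0, and without WT libraries 4 and 5 it was 0.01, with 7 of 10 above 0. Another factor moved it the other way: with Y-linked RNA as a factor the median was 0.47. With the ID number as a factor Hspa5 had a log2 fold change of 0.02 ± 0.194, Hsp90b1 0.00 ± 0.202 and Calr -0.06 ± 0.150. The part of the ID number or of Y-linked RNA in the higher levels of SCA6 was not tested beyond these values. At 3, 12 and 19 months Hspa5 had log2 fold changes of -0.07 ± 0.0994, -0.34 ± 0.246 and 0.19 ± 0.106.

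**Figure D4:**
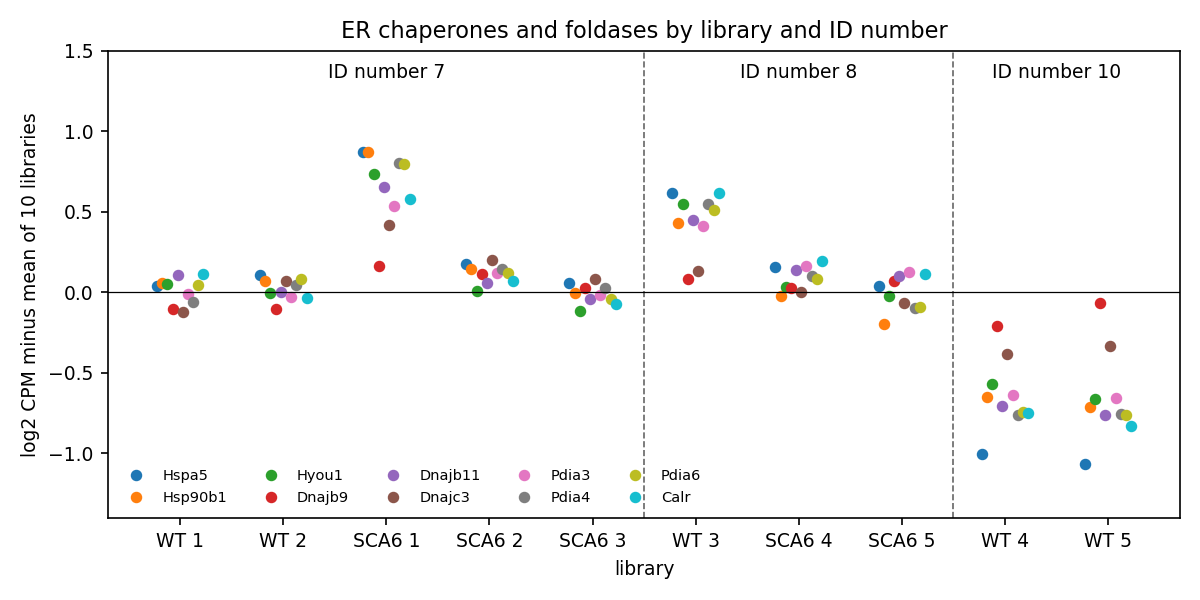
Log2 CPM of the 10 ER chaperones and foldases named by the study, each minus its mean over the 10 libraries (vertical axis), by library (horizontal axis), with libraries grouped by ID number and 1 colour per gene. WT libraries 4 and 5 of ID number 10 lie lowest, SCA6 library 1 and WT library 3 lie highest, and the other 6 libraries lie near 0.

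Within the fuller list of ER chaperones and cochaperones 15 of 21 genes were above 0 (median 0.16), and 2 had an unadjusted p under 0.05. Over all genes tested 50.2% were above 0. At an unadjusted p under 0.05, 3.94% of all genes were higher and 5.95% lower. These shares stand beside the counts of this list and of those below. Dnajb9, a cochaperone of BiP that XBP1 induces, was at 41.5, 41.5, 47.1, 38.6 and 42.5 CPM in WT and at 49.9, 48.1, 45.4, 45.4 and 46.8 CPM in SCA6 (0.16 ± 0.0569, adjusted p = 0.436, edgeR). WT library 3 lay within the SCA6 range and the other 4 WT libraries lay below it. With the ID number as a factor the value was 0.12 ± 0.0596. Of 17 disulfide isomerases and oxidoreductases 13 were above 0 (median 0.06), and Erp44, which retains secretory proteins in the early pathway, was the one with an unadjusted p under 0.05 (0.16 ± 0.0552). ER-associated degradation (ERAD) had 11 of 18 genes above 0 (median 0.00) and 2 at an unadjusted p under 0.05, the mannosidase-like Edem1 (0.20 ± 0.0751) and the ubiquitin-conjugating enzyme Ube2j1 (0.10 ± 0.0409). Translocation and N-glycosylation had 18 of 29 genes above 0 (median 0.03), with Mlec (0.25 ± 0.0998) and Spcs3 (0.16 ± 0.0716) at an unadjusted p under 0.05.

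Of 15 UPR sensors and transcription factors 10 were above 0 (median 0.04), and none was called. Xbp1, whose mRNA is spliced by IRE1, was at 149, 148, 189, 72.6 and 73.7 CPM in WT and at 194, 153, 142, 166 and 153 CPM in SCA6 (0.35 ± 0.232, adjusted p = 0.637, edgeR). Its lowest libraries were again WT 4 and 5, and with the ID number as a factor its value was -0.00 ± 0.101. Ppp1r15b, a phosphatase subunit that reverses the block of translation set by PERK, was at 86.8, 90.2, 83.4, 88.8 and 85.1 CPM in WT and at 103, 96.3, 92.3, 93.3 and 95.0 CPM in SCA6. Its groups did not overlap, and its value was nearly the same with the ID number as a factor (0.14 ± 0.0464 without and 0.15 ± 0.0468 with it, adjusted p = 0.411 without). Eif2s1, the target of PERK, had 0.11 ± 0.0442, and Creb3l2, an ER-bound transcription factor, 0.25 ± 0.102. Mbtps1, the protease that releases ATF6, was lower with -0.13 ± 0.0585. Of 26 targets of ATF4, the transcription factor downstream of PERK, 17 were above 0 (median 0.04), and none had an unadjusted p under 0.05.

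No cytosolic chaperone was called. In the HSP70 and HSP110 system 20 of 24 genes were above 0 (median 0.11), and 7 had an unadjusted p under 0.05, all higher: the HSP110 gene Hspa4, the J-domain cochaperones Dnaja1, Dnaja2, Dnajb1, Dnajb4 and Dnajb6, and Bag5. Over all genes tested 3.94% were higher at this p. Dnaja2 was at 188, 189, 179, 174 and 170.3 CPM in WT and at 209, 203, 195, 199 and 192 CPM in SCA6, without overlap (0.15 ± 0.0471, adjusted p = 0.405, edgeR), and it lies on chromosome 8, 0.897 Mb from Cacna1a. Dnaja1 was at 257, 272, 280.0, 225 and 209 CPM in WT and at 441, 301, 278, 283 and 261 CPM in SCA6 (0.33 ± 0.133, adjusted p = 0.457), with SCA6 library 1 far above the rest. Hspa8, the constitutive cytosolic HSP70, was at 2096, 2179, 2358, 1690.3 and 1493 CPM in WT and at 2915, 2231, 2149, 2218 and 2053 CPM in SCA6 (0.24 ± 0.127, adjusted p = 0.556). With the ID number as a factor the median of this list was 0.06, and with Y-linked RNA as a factor it was 0.14.

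Among HSP90 genes and their cochaperones 15 of 20 were above 0. The median was 0.09, or 0.04 with the ID number and 0.20 with Y-linked RNA as a factor. An unadjusted p under 0.05 was found for 3, the cochaperones Cacybp, Ptges3 and Chordc1, all higher, beside 3.94% of all genes tested that were higher at this p. Cacybp, which links chaperones to ubiquitin ligases, was at 52.7, 51.5, 60.9, 45.8 and 45.0 CPM in WT and at 70.8, 66.3, 59.1, 62.6 and 60.3 CPM in SCA6. WT library 3 lay within the SCA6 range, and the log2 fold change was 0.32 ± 0.0829 (adjusted p = 0.387, edgeR) or 0.21 ± 0.0731 with the ID number as a factor. The 4 HSP90 genes that the study named from this series, Hsp90aa1, Hsp90ab1, Hsp90b1 and Ahsa1, had a median of 0.21. It was 0.02 with the ID number as a factor, 0.33 with Y-linked RNA as a factor and 0.04 without SCA6 library 1. Of 30 targets of HSF1, the transcription factor of the heat shock response, 25 were above 0 and 5 had an unadjusted p under 0.05. Their median was 0.15, or 0.06 with the ID number and 0.25 with Y-linked RNA as a factor. Of 18 chaperonin and prefoldin genes 13 were above 0 (median 0.05), of 10 small and mitochondrial heat shock proteins 7 (median 0.05), and of 31 proteasome genes 20 (median 0.03).

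**Figure D5:**
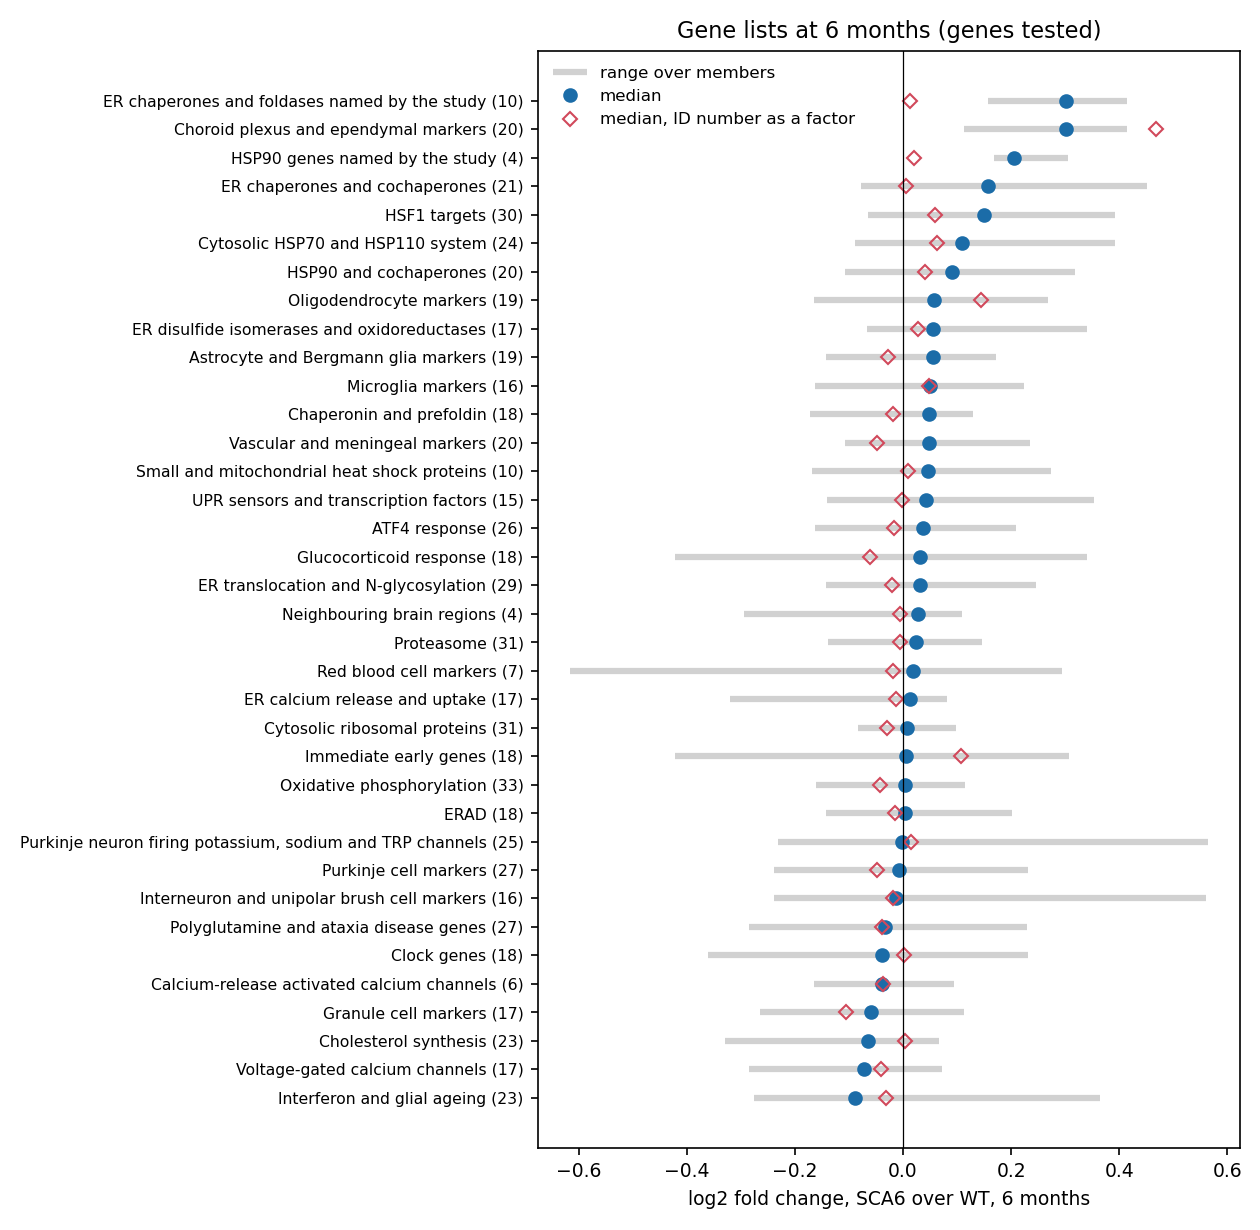
Median log2 fold change of SCA6 over WT at 6 months for 36 gene lists (filled circles) with the range over members (bars) and the median with the ID number as a factor (open diamonds), with the number of genes tested in brackets. The medians of the ER chaperones named by the study move from 0.30 to 0.01 with the ID number as a factor, and those of the choroid plexus list, which WT library 1 sets apart, from 0.30 to 0.47.

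No subunit of a calcium channel was called by edgeR. Over all genes tested 5.95% were lower at an unadjusted p under 0.05. Of 17 subunits of voltage-gated calcium channels 10 were below 0 (median -0.07), 9 of 16 without Cacna1a, and 5 had an unadjusted p under 0.05, all lower: Cacna1a, the T-type pore Cacna1g (-0.18 ± 0.0542), and the auxiliary subunits Cacna2d2 (-0.19 ± 0.0590), Cacnb3 (-0.25 ± 0.0884) and Cacnb1 (-0.16 ± 0.0743). Cacna1g was at 281, 251, 266, 290.2 and 261 CPM in WT and at 254, 226, 246, 237 and 227 CPM in SCA6 (adjusted p = 0.397, edgeR), with 1 SCA6 library above the lowest WT library. Of the genes of the calcium-release activated calcium (CRAC) channel, which refills ER calcium, 2 of 6 were above 0 (median -0.04). The pore gene Orai2 had -0.16 ± 0.0666, Orai1 -0.11 ± 0.111 and Orai3 0.04 ± 0.0709, and the ER calcium sensors had -0.07 ± 0.0438 (Stim1) and 0.09 ± 0.0465 (Stim2). The list of ER calcium release and uptake also holds Slc8a2, a sodium-calcium exchanger of the plasma membrane and not of the ER. Of its 17 genes 11 were above 0 (median 0.01), and 3 had an unadjusted p under 0.05, all lower. These were Slc8a2 (-0.32 ± 0.0887), the ryanodine receptor Ryr1 (-0.21 ± 0.0799) and the inositol trisphosphate receptor Itpr3 (-0.24 ± 0.0978). Slc8a2 was at 159.6, 122, 144, 144 and 148 CPM in WT and at 104, 100.1, 112, 125 and 135 CPM in SCA6, and its 3 lowest libraries were SCA6. Itpr1, the main such receptor of Purkinje cells, had 0.03 ± 0.0890.

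Of 25 channels that set Purkinje neuron firing 12 were above 0 and 13 below (median -0.00). The large-conductance potassium channel Kcnma1 was at 351, 392, 308, 369 and 328 CPM in WT and at 369.6, 369.7, 352, 336 and 324 CPM in SCA6, with log2 fold change 0.00 ± 0.0683. The small-conductance potassium channel Kcnn2 had 0.02 ± 0.0513. Both overlapped between the groups. Kcnj10, a glial potassium channel, had 0.19 ± 0.0729, Kcnmb4 -0.17 ± 0.0689, Kcnn1 -0.23 ± 0.103 and Kcnc2 0.56 ± 0.259, each at an unadjusted p under 0.05 and uncalled.

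Markers of cell types gave no called gene. Beside their counts, 3.94% of all genes tested were higher and 5.95% lower at an unadjusted p under 0.05. Of 27 Purkinje cell markers 12 were above 0 and 15 below (median -0.01), with Fam107b higher and Lhx1 and Grid2ip lower at an unadjusted p under 0.05. Of 17 granule cell markers 14 were below 0 (median -0.06), and Grin2c, Fat2 and Cbln3 had an unadjusted p under 0.05. Fat2, a giant cadherin of parallel fibres, was at 946, 947, 862, 1062 and 1004 CPM in WT and at 882, 826, 872, 852 and 798 CPM in SCA6 (-0.19 ± 0.0592, adjusted p = 0.406, edgeR). Among markers of interneurons and unipolar brush cells 6 of 16 were above 0 and 10 below (median -0.01). At an unadjusted p under 0.05, 1 was higher and 2 were lower. Pax2 (-0.24) and Slc32a1 (-0.23) were among the genes below 0. Eomes, which defines unipolar brush cells, went the other way, at 34.8, 45.2, 42.8, 25.6 and 16.1 CPM in WT and at 45.2, 40.4, 43.5, 57.3 and 56.4 CPM in SCA6 (0.56 ± 0.225, adjusted p = 0.456). WT libraries 4 and 5 were again the lowest, and the value with the ID number as a factor was 0.21 ± 0.133.

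Oligodendrocyte markers included 2 genes without overlap among 19 tested, beside 231 of 13107 (1.76%) over all genes. Of the 19, 14 were above 0 and 5 below (from -0.16 to 0.27, median 0.06), and Mobp, Mal and Ermn had an unadjusted p under 0.05. Mobp, a protein of compact myelin, was at 739, 715, 805, 705 and 842 CPM in WT and at 904, 927, 931, 949 and 872 CPM in SCA6. Mal, a membrane protein of myelin, was at 138, 121, 141, 132 and 143 CPM in WT and at 154, 160.2, 158, 163 and 155 CPM in SCA6. For both genes every SCA6 library lay above every WT library. The log2 fold changes were 0.27 ± 0.0579 and 0.23 ± 0.0519 (adjusted p = 0.375 and 0.387 by edgeR, 0.00489 and 0.0108 by DESeq2), under the 0.3 minimum, and 0.28 and 0.25 with the ID number as a factor. At 3, 12 and 19 months Mobp had 0.03 ± 0.109, 0.01 ± 0.108 and 0.12 ± 0.101.

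The choroid plexus and ependymal list had all 20 genes above 0 (median 0.30), and WT library 1 moved with it. The level of the list, the median over its genes of log2 CPM minus each gene's mean, was -3.42 in WT library 1 and 0.49 in the highest WT library, and lay between 0.20 and 0.52 in SCA6. Without WT library 1 the median log2 fold change of the list was 0.03. Within ID number 8 its median log2 ratio was -0.15, with 5 of 20 genes above 0. Astrocyte and Bergmann glia markers had 11 of 19 genes above 0 (median 0.06), microglia markers 12 of 16 (median 0.05), vascular and meningeal markers 11 of 20 (median 0.05) and red blood cell markers 4 of 7 (median 0.02). Of 21 markers of neighbouring regions 4 passed the CPM filter, 2 above 0 and 2 below (median 0.03). One below 0 was Th, which makes the precursor of dopamine and is also used by a subset of Purkinje cells. Th was at 10.4, 9.89, 9.74, 9.29 and 10.1 CPM in WT and at 8.69, 8.03, 7.66, 7.81 and 8.14 CPM in SCA6. Its groups did not overlap (-0.29 ± 0.0650, adjusted p = 0.383 by edgeR and 0.0237 by DESeq2).

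Other programmes showed no called gene. Of 18 immediate early genes 9 were above 0 (median 0.01), and Jun was at 20.4, 14.8, 19.2, 26.1 and 30.1 CPM in WT and at 15.3, 16.9, 18.8, 15.4 and 16.2 CPM in SCA6 (-0.42 ± 0.155, adjusted p = 0.436, edgeR). Its highest libraries were WT 4 and 5, and it had -0.14 with the ID number as a factor. Of 18 clock genes 8 were above 0 (median -0.04). Dbp, an output gene of the clock, had -0.36 ± 0.133 and Nr1d1, a repressor within it, -0.21 ± 0.0864.

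Of 27 genes of polyglutamine and other ataxias 9 were above 0 and 18 below (median -0.03). At an unadjusted p under 0.05, 3 were lower, among them Cacna1a, and 1 was higher, Elovl5. Elovl5, a fatty acid elongase mutated in a dominant ataxia, was at 112, 118, 116, 107 and 100.3 CPM in WT and at 129, 139.7, 132, 128 and 120.0 CPM in SCA6, without overlap (0.23 ± 0.0572, adjusted p = 0.387, edgeR). Of 23 genes of cholesterol synthesis and uptake 16 were below 0 (median -0.06). Glucocorticoid-responsive genes had 9 of 18 above 0 (median 0.03), and interferon and glial ageing genes 11 of 23 (median -0.09). None of 33 oxidative phosphorylation genes (median 0.00) and none of 31 cytosolic ribosomal protein genes (median 0.01) had an unadjusted p under 0.05.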

How the data were processed

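The series holds mRNA libraries of the cerebellum, 5 for each genotype (WT or SCA6) at each age (3, 6, 12 or 19 months). The authors deposited raw counts per gene from 150 bp paired reads, made with FastQC, Trimmomatic, STAR, HTSeq and the mm10 build (submitters' notes and methods). For tool versions, annotation release and strand setting the sources used here give nothing, so the counts of a gene may include reads of one that overlaps it on either strand. The study removed outlying libraries before its tests, and which of 6 months these were is not given in its methods. All 40 deposited libraries were kept here.

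Genes with a CPM of 1 or more in every library of either group entered the quasi-likelihood fit of edgeR 4.0.16 (R 4.3.3) after TMM scaling, with Benjamini-Hochberg adjustment over all genes tested. Printed CPM are TMM-scaled, and the ± of a fold change is its SE. Alternatives were DESeq2 1.42.0, limma 3.58.1 voom, other scalings and filters, a joint fit, sample number, ID number and Y-linked RNA (Ddx3y of 10 CPM or more) as factors, and left-out libraries. The fits were tested on simulated data.

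Named genes were those the study names, all called genes, the 10 highest and 10 lowest fold changes at an unadjusted p of 0.001 or less among genes whose log2 CPM averaged at least 1, up to 4 members of each list with the smallest p, the 10 genes within 10 Mb of Cacna1a with the smallest p, and Y-linked genes. Ttr, Bag5, Dnajb6, Cacnb1 and Tmem59l were named after their values were seen, and so were genes given as missing, as markers or as added by an alternative. The members and lists were chosen with earlier results of these data known, so lists carry counts and medians with no test. A positive list value means higher in SCA6. Positions came from GENCODE vM21 (GRCm38), in which 19609 of 21967 symbols (89.3%) had one, and promoters from RefSeq. Each library came from its own sample, and p-values measure the spread between these libraries. Chi-square per degree of freedom between the 45 pairs of libraries was 5.15 to 80.2, and no library duplicated another. A few items withheld for evaluation are not reported here.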

Additional observations from a re-analysis of the deposited data

Results flagged for a closer look

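In 6 of the 72 groups of 5 libraries (36 genes in each genotype), 1 library lay far from the other 4 by Dixon's test at the 95% level. Chance gives this in about 1 in 20 groups that are independent and unselected. The 36 genes were chosen for this text and some move together, so the count cannot be set against that rate. SCA6 library 1 was the outlying library for 4 chaperone genes, with 791 CPM of Hspa5, 1219 CPM of Hsp90b1, 441 CPM of Dnaja1 and 2915 CPM of Hspa8, each the highest of its group. It is the one SCA6 library with Y-linked RNA, and with Y-linked RNA as a factor the log2 fold changes of these 4 genes were 0.61, 0.48, 0.43 and 0.34. The other 2 were SCA6 library 5 with 9.75 CPM of Hook2, the highest of its group, and WT library 3 with 17.7 CPM of Abcc12, the lowest.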

How the results depend on the processing

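The count of 3 called genes was 27 with DESeq2, 6 in a joint fit of all 40 libraries (adding Cysltr2, Il15 and Mybpc3) and 0 without the 2 WT libraries of ID number 10, an alternative chosen after seeing the data. It lay between 3 and 6 when 1 library was left out in turn, with 6 without WT library 2 (adding Abhd16a, Cep131 and RP23-356J2.6), and between 2 and 4 in the other 10 alternatives. With the sample number as a replicate block 2 genes were called, and Abcc12 was lost (adjusted p = 0.123, edgeR). No source states a pairing by number. The deviations of same-numbered WT and SCA6 libraries 1 to 5 correlated at 0.0833, 0.467, -0.451, -0.00837 and -0.239. Each value rests on 1 pair of libraries, so they cannot decide whether any were paired. No gene was called by edgeR for a difference between ages with the replicate block (1574 at an unadjusted p under 0.05), nor without SCA6 libraries 2 and 3 of 3 months (1424). DESeq2 called 31, 10 and 9 genes at 3, 12 and 19 months, and edgeR called 5 at 3 months without those 2 libraries, both chosen after seeing the data. No alternative turned the direction of the 3 called genes. Some uncalled genes with positive log2 fold changes had negative ones elsewhere. With the ID number as a factor Calr had -0.059, Kcnn2 -0.036, Pdia6 -0.020, Xbp1 -0.0043 and Orai3 -0.0076. Without the 2 WT libraries of ID number 10 these were -0.068, -0.036, -0.021, -0.0052 and -0.0017, and Kcnma1 had -0.0021. With limma voom Itpr1 had -0.014 and Kcnma1 -0.025. With 1 library left out, Hsp90ab1 ranged from -0.0083 to 0.288, Itpr1 from -0.023 to 0.082, Kcnma1 from -0.040 to 0.050 and Kcnn2 from -0.0072 to 0.044. The medians of 17 of 36 gene lists changed sign with the ID number as a factor. The cause of these changes was not tested. No alternative moved the median over all genes by more than 0.0059. Genes that missed the CPM filter had too few counts to be tested, and nothing is said of them.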

Other observations

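Further members of the gene lists, none of them called, are given here by their values. Pdk4 and Slc4a1 did not overlap between the groups. Pdk4, a kinase that restrains the use of pyruvate in mitochondria, was at 10.99, 11.1, 11.9, 10.4 and 10.9 CPM in WT and at 17.4, 14.4, 12.9, 12.8 and 12.5 CPM in SCA6, with a log2 fold change of 0.34 ± 0.0920 (SE, adjusted p = 0.389, edgeR). Slc4a1, the anion exchanger of red blood cells, was at 2.02, 1.34, 1.46, 1.99 and 1.87 CPM in WT and at 1.17, 1.06, 1.01, 1.24 and 1.21 CPM in SCA6 (-0.62 ± 0.143, adjusted p = 0.387). Flt1, a receptor of endothelial cells, had 0.23 ± 0.0650 and Slc32a1, the vesicular transporter of inhibitory neurons, -0.23 ± 0.0786, and both overlapped between the groups.
Pdk4, Slc4a1, Flt1 and Slc32a1 come from the lists of glucocorticoid-responsive genes and of red blood cell, vascular and interneuron markers.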
